A study of Curvularia clavata with 15 samples.

Results

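The Δrpn-4 and Δtah-1 deletion mutants of the filamentous fungus Curvularia clavata were compared directly with each other. Their members are the 6 RNA-seq libraries that the labels assign to these genotypes, 3 per mutant, of 15 libraries in the series. The labels give J1 as the strain of every sample, both mutants included, and both were grown as mycelia for 4 days on the lignosulfonate medium. That medium is Vogel's minimal medium with 2% lignosulfonate and 0.25% glucose, in 100 mL cultures shaken at 200 rpm and 30 °C.

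The series asks how this fungus uses lignin and which regulators act on its laccase activity. Besides both mutants it holds the wild type (WT) on the same lignosulfonate medium, WT on 2% glucose, and a ΔCclaeA mutant on lignosulfonate, with 3 libraries each and 4 days of growth. The labels do not state whether replicates are separate cultures. The p-values therefore refer to the spread between the deposited samples, pooled over all groups of the series, and that spread may be technical in part. The sources used here do not say whether a deletion mutant is 1 transformant.

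Lignosulfonate is a water-soluble, sulfonated form of lignin, the aromatic polymer of plant cell walls. Laccases are secreted copper-containing oxidases that act on phenolic compounds, lignin fragments among them. In budding yeast, Rpn4 activates transcription of the proteasome genes, and LaeA proteins of filamentous fungi are regulators of secondary metabolism. The deposited files list gene IDs without names or products, so genes are given by ID only, with no function attached. The IDs of the deleted genes are not known here, and the genotype labels were therefore not checked against the values.

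Each library listed 10170 gene IDs in FPKM, a level that divides the fragments of each transcript by its length and by the total of the library. The median FPKM was 17.5 ± 0.144 (SD, n = 3) in Δrpn-4 against 25 ± 4.80 in Δtah-1. Medians of the latter were 21.4, 30.5 and 23.1 in replicates 1, 2 and 3, so replicate 2 stood above the other libraries of its group. The FPKM sum was 1005073 to 1039594 in Δrpn-4, against 662880, 946538 and 700602 in Δtah-1. Depth in reads is unknown, and at most 139 of 9265 tested IDs had identical values in both libraries of a replicate pair.

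A few IDs made up a larger part of the signal in Δrpn-4. In each library the top 10 IDs by level held 25.9% ± 0.517 of its FPKM sum in Δrpn-4 and 7.83% ± 0.838 in Δtah-1, and the 100 most abundant held 51.0% ± 0.166 and 25.9% ± 0.510. WT on lignosulfonate stood at 11.9% ± 0.152 for the 10 most abundant, nearer to Δtah-1. Because FPKM is relative to a library's total, each comparison is given both on the deposited values and after division by median-of-ratios size factors, which set the typical ID equal between libraries.

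**Figure D1:**
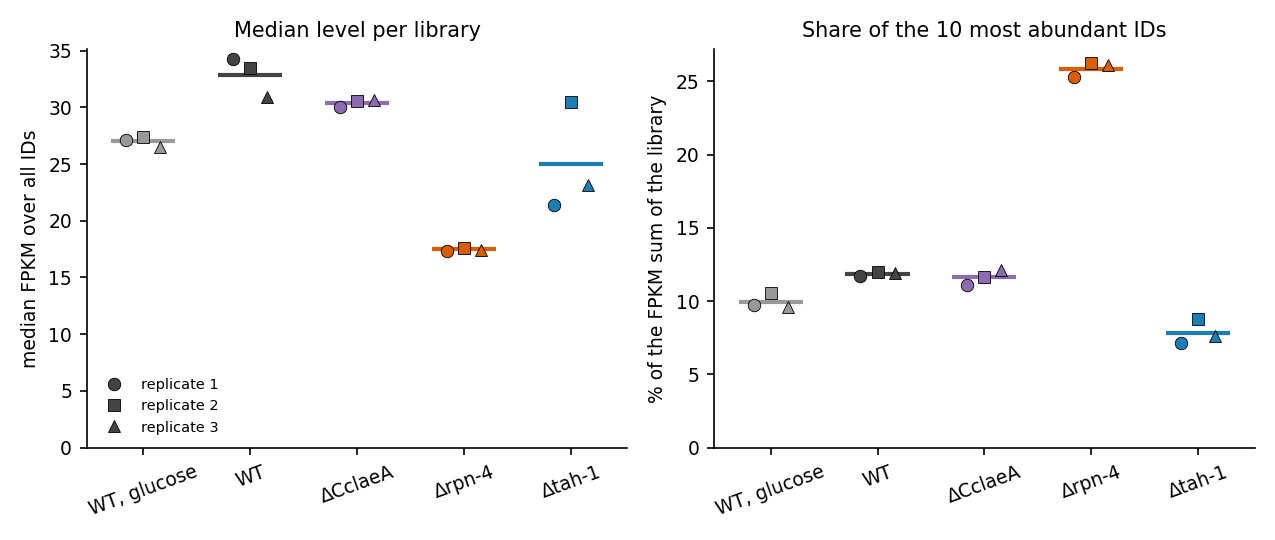
Median FPKM over all IDs (left) and percent of the FPKM sum held by the 10 most abundant IDs (right), 1 symbol per library and a bar at the group mean, for all 5 groups of 3. The Δrpn-4 libraries have the lowest medians and the highest shares, and Δtah-1 replicate 2 has a median of 30.5 FPKM against 21.4 and 23.1 in the other Δtah-1 libraries.

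The mutants differed at a large part of the transcriptome. Of 9265 IDs that reached 1 FPKM in 3 or more libraries, 2903 (31.3%) were called different on the deposited values, with 709 (7.65%) higher in Δrpn-4 and 2194 (23.7%) in Δtah-1. A call required a Benjamini-Hochberg adjusted p under 0.05 from limma on log2(FPKM + 1) and a difference of at least 2-fold. After median-of-ratios scaling 2428 IDs (26.2%) were called, 1276 (13.8%) higher in Δrpn-4 and 1152 (12.4%) in Δtah-1.

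How the calls split by direction depended on the scaling. IDs higher in Δrpn-4 made up 24.4% of the calls on the deposited values and 52.6% after median-of-ratios scaling. The median log2 difference (Δrpn-4 minus Δtah-1) over all tested IDs was -0.43 on the deposited values and -0.02 after scaling, so differences on the deposited values have to be read against that shift. Rescaling to equal sums (TPM) gave 451 and 3774 calls, and dividing by the sum without the 100 most abundant IDs gave 897 and 1673. The deposited and the median-of-ratios values gave opposite calls for 0 IDs. All 709 IDs called higher in Δrpn-4 on the deposited values were also called after median-of-ratios scaling, and all 1152 called higher in Δtah-1 after scaling were also called on the deposited values.

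**Figure D2:**
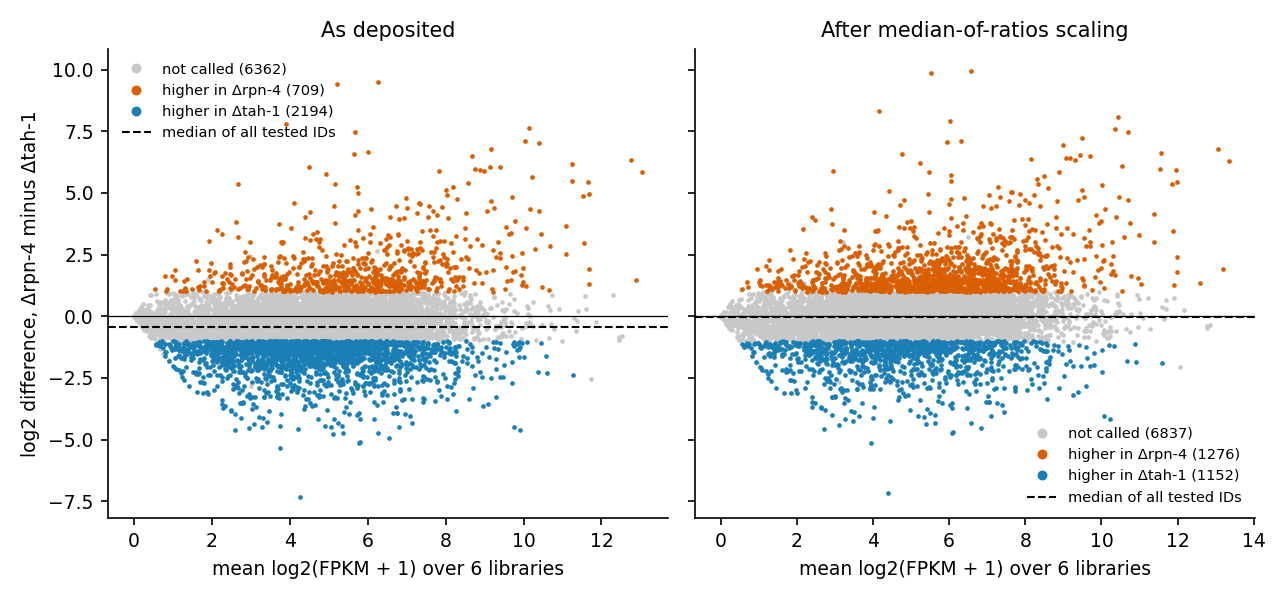
Log2 difference, Δrpn-4 minus Δtah-1, against the mean log2(FPKM + 1) over the 6 libraries, 1 point per tested ID, on deposited values (left) and after median-of-ratios scaling (right), with called IDs in colour. The dashed line, the median over all tested IDs, lies at -0.43 on the left and at -0.02 on the right.

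Leaving out Δtah-1 replicate 2 moved the deposited calls mainly on the Δtah-1 side. Without it 2399 IDs (26.0%) were called, 775 (8.40%) higher in Δrpn-4 and 1624 (17.6%) in Δtah-1, and the median log2 difference was -0.27. Of the calls made with all libraries, 614 higher in Δtah-1 and 48 higher in Δrpn-4 were lost without that library, while 44 and 114 were gained. After median-of-ratios scaling the counts without it were 2266 (24.6%), 1173 (12.7%) and 1093 (11.8%), with 334 calls lost and 172 gained.

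The libraries of Δtah-1 varied more among themselves than those of Δrpn-4. The median SD per ID on the log2(FPKM + 1) scale was 0.343 in Δtah-1 and 0.106 in Δrpn-4, and 0.236 and 0.109 after median-of-ratios scaling. The SD was larger in Δtah-1 for 89.3% of tested IDs on the deposited values and for 78.5% after scaling. The p-values use a single spread per ID, pooled over all groups, and do not take this inequality into account. Replicate 2 of Δtah-1 stood at least 2-fold from the mean of replicates 1 and 3 at 1152 IDs (12.4%), 1045 of them higher. After scaling it did so at 572 IDs (6.17%), 445 of them lower, so scaling reversed the prevailing direction. No Δrpn-4 library stood that far from the other libraries of its group at more than 0.572% of IDs under either scaling.

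Over all tested IDs, replicate 2 lay a median of 0.48 above the mean of replicates 1 and 3 on the log2 scale of the deposited values, and -0.01 from it after scaling. Among the 1152 IDs called higher in Δtah-1 under both scalings, replicate 2 had the highest of the 3 deposited Δtah-1 values at 945 (82.0%), and at 592 (51.4%) after scaling. Among the 709 called higher in Δrpn-4 it had the highest Δtah-1 value at 424 (59.8%), and at 180 (25.4%) after scaling. It had the lowest at 205 (28.9%) of these, and at 410 (57.8%) after scaling. Shares over all tested IDs are not given here.

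Called under both scalings, with and without Δtah-1 replicate 2, were 661 IDs (7.13%) higher in Δrpn-4 and 1003 (10.8%) with a higher level in Δtah-1. The values of the 3 libraries of each mutant did not overlap on the deposited scale at 660 and 1003 of these. That was nearly given by the selection of these IDs, and the share over all tested IDs was not computed. The IDs named below from their size or level were taken from this set.

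**Figure D3:**
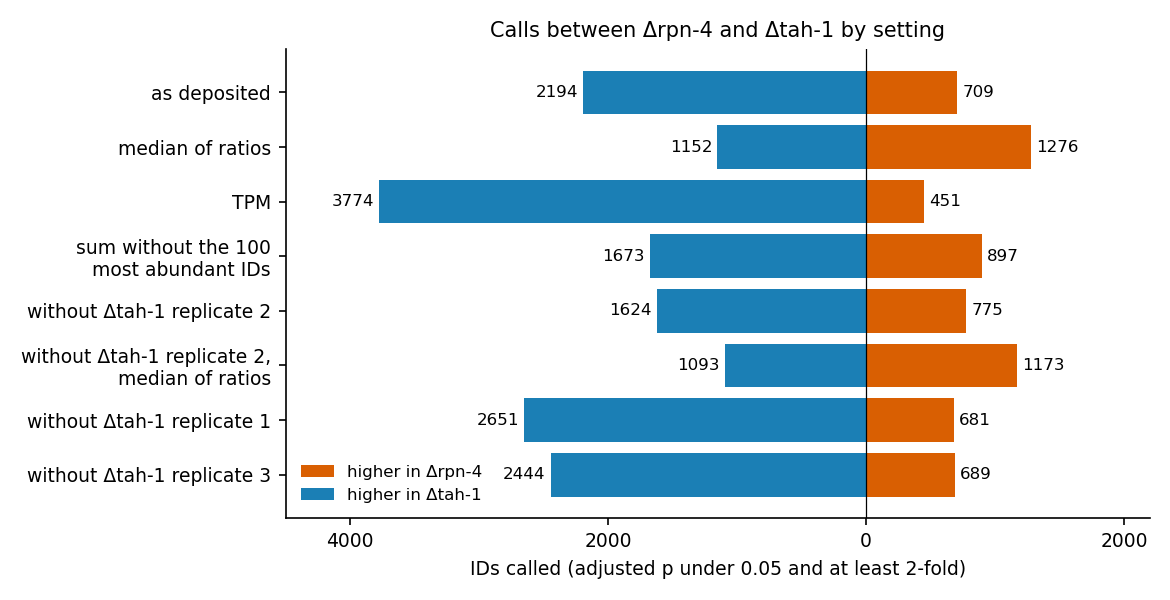
Number of IDs called higher in Δrpn-4 (right of 0) and higher in Δtah-1 (left of 0) under 8 settings. The Δtah-1 side ranges from 1093 to 3774 and the Δrpn-4 side from 451 to 1276, and the longer side changes between the deposited values and median-of-ratios scaling.

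Large differences were counted more often toward Δrpn-4 on the deposited values and after median-of-ratios scaling. On the deposited values 63 IDs (0.680%) were called at least 16-fold higher in Δrpn-4, and 32 (0.345%) were that far toward Δtah-1. After median-of-ratios scaling these counts were 76 and 21. The order of these counts depended on the settings: TPM gave 46 and 57, and a pseudocount of 0.1 gave 71 in each direction. Among the IDs called under both scalings, the scaled difference reached 16-fold at 76 of 709 (10.7%) higher in Δrpn-4 and at 21 of 1152 (1.82%) higher in Δtah-1, while 339 and 859 lay between 2-fold and 4-fold.

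The IDs higher in Δrpn-4 were also abundant ones. The 709 IDs accounted for 55.1% ± 0.427 of all FPKM in Δrpn-4 (SD, n = 3) and 7.82% ± 0.172 in Δtah-1. The same IDs held 25.3% ± 1.34 in WT on lignosulfonate, 18.3% ± 0.238 in ΔCclaeA and 18.1% ± 0.533 in WT on glucose. Those shares place Δrpn-4 above and Δtah-1 below every other group. The 1152 IDs higher in Δtah-1 held 21.7% ± 0.665 of the sum in Δtah-1 and 3.21% ± 0.0445 in Δrpn-4, with 7.33% ± 0.324 in WT on lignosulfonate. These IDs were chosen by the same difference, so the shares describe its weight in the libraries and are no further test of it.

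At the top of the distribution the lists of 10 shared 1 ID. All 10 IDs that led Δrpn-4 by mean FPKM were called higher in that mutant under both scalings, and together they held 25.8% ± 0.565 of the sum there against 1.21% ± 0.144 in Δtah-1. Their median rank in Δtah-1 was 204. Of the 10 IDs with the highest mean in Δtah-1, 3 were called higher in Δtah-1 and 1 higher in Δrpn-4. Together they held 7.79% ± 0.882 in Δtah-1 and 3.80% ± 0.205 in Δrpn-4, and their median rank in Δrpn-4 was 32. Each list was ranked by level in its own mutant, so a higher share there is in part given by the ranking. The lists of the 100 most abundant IDs shared 35 IDs, 35% of each list. Under both scalings 71 of the Δrpn-4 list were called higher in Δrpn-4 and 1 in Δtah-1. Of the Δtah-1 list, 27 were called higher in Δtah-1 and 8 in Δrpn-4. Over all tested IDs these calls were made at 7.65% toward Δrpn-4 and 12.4% toward Δtah-1.

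The 1 ID in both lists of 10 was yc1106_09585, named after its values were seen. It was listed at 12420, 13024 and 12326 FPKM in the Δrpn-4 libraries and at 3060, 7856 and 3872 in the Δtah-1 libraries. Every Δrpn-4 value was above every Δtah-1 value, and both mutants were below WT on lignosulfonate, where the mean was 25517 ± 1596. The log2 difference between the mutants was 1.47 (SE 0.34, limma adjusted p = 0.00170) and 1.94 after median-of-ratios scaling.

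The most abundant IDs of Δrpn-4 that pass every condition were yc1106_07527 and yc1106_06890. yc1106_07527 was listed at 62671, 66495 and 64199 FPKM in Δrpn-4 and at 940, 1327 and 1112 in Δtah-1. The groups were far apart, and WT on lignosulfonate lay between them at 17807 ± 1547. The log2 difference was 5.85 (SE 0.28, limma adjusted p = 2.48e-10), and 6.31 after scaling. yc1106_06890 stood at 52594, 70150 and 64399 FPKM in Δrpn-4 and at 627, 746 and 999 in Δtah-1, a log2 difference of 6.32 (SE 0.24, limma adjusted p = 2.45e-11). WT on lignosulfonate again lay between the mutants for this ID, at 12425 ± 555, and ΔCclaeA was lower than both at 170 ± 44.7.

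On the Δtah-1 side the most abundant such IDs were yc1106_01354 and yc1106_08475. yc1106_01354 was listed at 847, 1330 and 1135 FPKM in Δrpn-4 and at 3760, 8684 and 5473 in Δtah-1, with replicate 2 the highest. The log2 difference was -2.38 (SE 0.34, limma adjusted p = 2.85e-05), -1.91 after median-of-ratios scaling and -2.06 without Δtah-1 replicate 2. yc1106_08475 had 185, 181 and 218 FPKM in Δrpn-4 and 2987, 7473 and 5003 in Δtah-1. The groups did not overlap, and the log2 difference was -4.63 (SE 0.33, limma adjusted p = 1.95e-08). This ID was listed at 0, 0 and 1.11 FPKM in WT on glucose and at 959 ± 171 in WT on lignosulfonate, so on the deposited values the 2 mutants stood on opposite sides of WT on the same medium.

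The largest log2 differences toward Δrpn-4 were those of yc1106_07980 and yc1106_06359. yc1106_07980 stood at 2024.7, 2296.9 and 1886.3 FPKM in Δrpn-4 and was listed at 0, 0 and 22.7 in Δtah-1. WT on lignosulfonate had 119, 389 and 191 FPKM, and ΔCclaeA 0, 0 and 9.6. With 0 beside more than 10 FPKM within Δtah-1, this ID is among the uneven zeros counted below, so the size of its difference is uncertain. Its log2 difference of 9.49 (SE 1.18, limma adjusted p = 2.88e-05) rests on the pseudocount and on replicate 3 of Δtah-1: it was 11.72 with a pseudocount of 0.1 and 11.01 without that library. yc1106_06359 stood at 1006, 987 and 914 FPKM in Δrpn-4 and at 0.910, 0 and 0.540 in Δtah-1. Its log2 difference was 9.40 (SE 0.19, limma adjusted p = 7.72e-14) and 9.87 after scaling, with 314 ± 5.37 FPKM in WT on lignosulfonate and 74.9 ± 5.31 in ΔCclaeA. With a pseudocount of 0.1 it was 11.24.

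Toward Δtah-1 the largest differences were those of yc1106_01883 and yc1106_05522. yc1106_01883 was listed at 0.360, 0.510 and 0.700 FPKM in Δrpn-4 and at 127, 560 and 192 in Δtah-1. All other groups were at or under 1.83 FPKM on average, so only Δtah-1 had this ID above that level. The log2 difference was -7.31 (SE 0.38, limma adjusted p = 6.86e-10), -7.18 after scaling and -6.70 without Δtah-1 replicate 2. yc1106_05522 had 1.72, 0.840 and 0.860 FPKM in Δrpn-4 and 58.8, 135 and 76.5 in Δtah-1, a log2 difference of -5.35 (SE 0.24, limma adjusted p = 1.69e-10). It was listed at 0 in all 3 libraries of WT on glucose and at 8.0 ± 0.696 FPKM in WT on lignosulfonate.

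**Figure D4:**
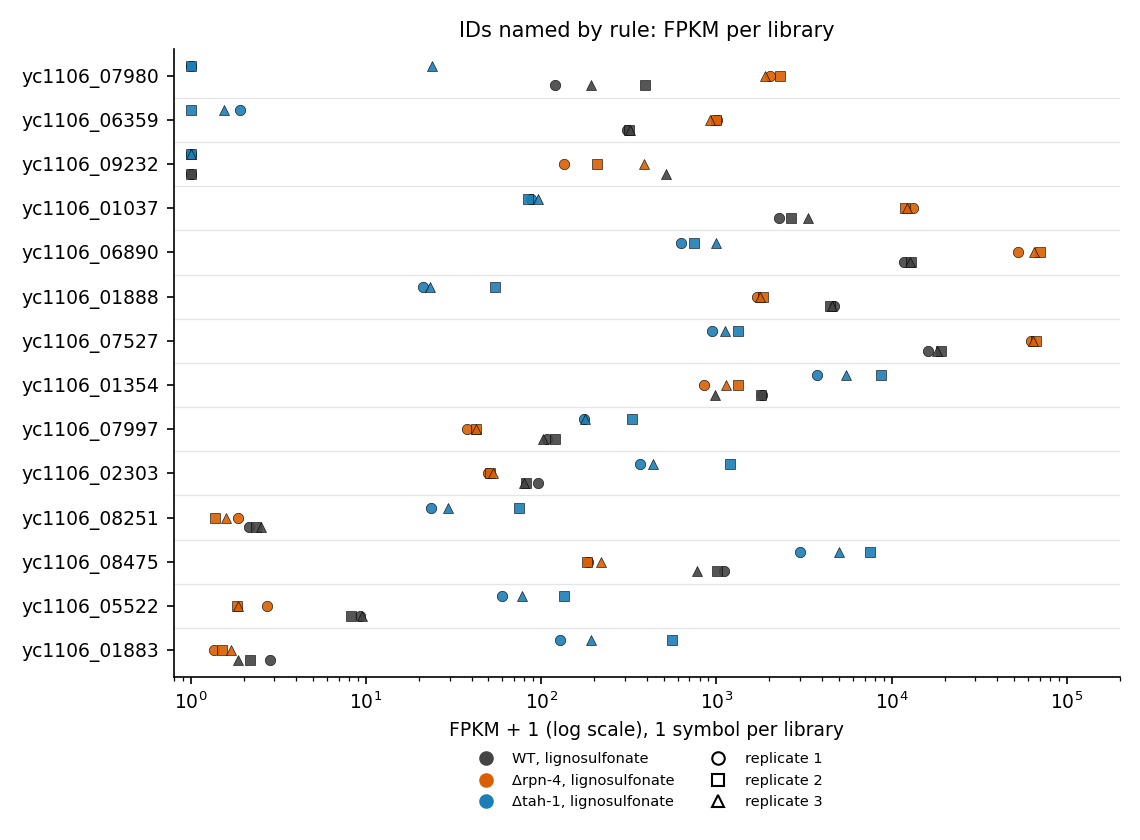
FPKM + 1 on a log axis for the 14 IDs named by rule, 1 symbol per library, for Δrpn-4, Δtah-1 and WT on lignosulfonate. The Δrpn-4 and Δtah-1 symbols do not overlap at any of these IDs, as the rule required for those named by size, level or near-absence. WT lies between the mutants for yc1106_07527 (17807 ± 1547 FPKM) while it spreads from 0 to 515 FPKM for yc1106_09232.

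Near-absence in 1 mutant was rare in both directions. Only 4 of 10170 IDs (0.0393%) reached 10 FPKM in each Δrpn-4 library while staying under 1 FPKM in each Δtah-1 library, and 10 (0.0983%) had the opposite pattern. These counts depended on the thresholds: at 20 and 0.5 FPKM they were 2 and 1, after median-of-ratios scaling 5 and 4, and without Δtah-1 replicate 2 they were 7 and 11. The highest IDs of the first set were yc1106_06359, described above, and yc1106_09232. The highest of the second were yc1106_01883, described above, and yc1106_08251, with 0.860, 0.380 and 0.580 FPKM in Δrpn-4 and 22.5, 74.0 and 28.2 in Δtah-1 (log2 difference -4.54, SE 0.34, limma adjusted p = 3.47e-08). For yc1106_08251 WT on lignosulfonate was also low, at 1.34 ± 0.181 FPKM.

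An exact 0 needs care in these files. yc1106_09232 was listed at 133, 206 and 385 FPKM in Δrpn-4 and at 0 in every Δtah-1 library, but also at 0, 0 and 515 in WT on lignosulfonate and at 0, 0 and 998 on glucose. It was called with all libraries (limma adjusted p = 0.0289), and not when any 1 of the 6 mutant libraries was left out on the deposited values (limma adjusted p = 0.0536 to 0.0758). After median-of-ratios scaling it lost its call only without Δrpn-4 replicate 3 (limma adjusted p = 0.0508). With only the 6 mutant libraries in the fit, and so without the WT values, the limma adjusted p was 2.52e-06. yc1106_01200, named after its values were seen, was the other ID listed at 0 in all 3 Δtah-1 libraries and at 10 FPKM or more in all 3 of Δrpn-4, with 31.4, 43.2 and 46.4 FPKM there. It was also listed at 0 in 1 library of each other group, so no fold is given for either ID. An ID at 0 in 1 library and at 10 FPKM or more in another of the same group occurred 5 times in Δrpn-4, 16 times in Δtah-1 and 15 times in each WT group. In the other direction 7 IDs were listed at 0 in all 3 Δrpn-4 libraries and at 1 FPKM or more in each Δtah-1 library. None of them was at 10 FPKM or more in all of Δtah-1.

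Some called IDs had neighbouring numbers. The sources used here do not say whether the numbering is the order along the genome. Among IDs called under both scalings, 257 of the 709 higher in Δrpn-4 (36.2%) and 448 of the 1152 higher in Δtah-1 (38.9%) stood in runs of at least 2 consecutive numbers called in the same direction. These sets are 7.65% and 12.4% of all tested IDs, so some runs arise without any ordering, and more of them in the larger set. The share in runs without ordering was not computed. Runs of 4 or more numbered 4 toward Δrpn-4, with a longest of 5, and 16 toward Δtah-1, with a longest of 9. Without Δtah-1 replicate 2 there were 6 and 13 such runs, and the longest kept the lengths 5 and 9.

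The first run of 5 toward Δrpn-4 was yc1106_01034 to yc1106_01038. Its median over the 5 IDs was 1006, 837 and 925 FPKM in the Δrpn-4 libraries and 47.0, 72.0 and 52.1 in the Δtah-1 libraries. WT on lignosulfonate lay between, at 280 FPKM, and the log2 differences ran from 1.42 to 7.12 with a median of 4.12. The IDs on either side, yc1106_01033 and yc1106_01039, were not called, with log2 differences of -0.59 and -0.43. Its most abundant ID, yc1106_01037, stood at 13265, 11852 and 12195 FPKM in Δrpn-4 and at 86.8, 83.2 and 95.1 in Δtah-1 (log2 difference 7.12, SE 0.17, limma adjusted p = 4.04e-13). Of the groups on lignosulfonate, only ΔCclaeA was lower than Δtah-1 at this ID, with 55.5 ± 5.63 FPKM.

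The other named run toward Δrpn-4, yc1106_01886 to yc1106_01890, had a different order of the groups. Its median was 182, 181 and 184 FPKM in Δrpn-4 and 3.29, 8.06 and 5.15 in Δtah-1, with a median log2 difference of 5.90. WT and ΔCclaeA on lignosulfonate were above both mutants, at 354 and 685 FPKM, and WT on glucose was at 0.200. yc1106_01888 in this run stood at 1703, 1842 and 1761 FPKM in Δrpn-4 and at 20.01, 53.16 and 22.06 in Δtah-1 (log2 difference 5.90, SE 0.26, limma adjusted p = 1.19e-10). Close to these IDs the direction turned: yc1106_01883, described above, and yc1106_01884, named after its values were seen, were higher in Δtah-1. yc1106_01884 had 0.490, 0.440 and 0.630 FPKM in Δrpn-4 and 13.04, 35.55 and 17.26 in Δtah-1 (log2 difference -3.80, SE 0.25, limma adjusted p = 9.10e-09).

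The longest run of all was yc1106_02302 to yc1106_02310, 9 IDs that were all higher in Δtah-1. Its median was 24.9, 23.7 and 23.6 FPKM in Δrpn-4 and 147, 489 and 198 in Δtah-1, with replicate 2 far above the other Δtah-1 libraries. The mean of WT on lignosulfonate lay between the mutant means at 6 of the 9 IDs and below both at 3, and after median-of-ratios scaling between at 2 and below both at 7. The log2 differences ran from -4.75 to -2.16 with a median of -3.69, and -3.25 after median-of-ratios scaling, and all 9 IDs were also called without Δtah-1 replicate 2. yc1106_02303, the most abundant of them, stood at 48.4, 50.2 and 52.3 FPKM in Δrpn-4 and at 365, 1194 and 436 in Δtah-1. Its log2 difference was -3.49 (SE 0.30, limma adjusted p = 1.60e-07), and -2.96 without replicate 2.

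The next longest, yc1106_07992 to yc1106_07998, held 7 IDs higher in Δtah-1. Its median was 15.6, 15.6 and 16.4 FPKM in Δrpn-4 and 64.3, 130 and 84.5 in Δtah-1, with WT on lignosulfonate between them at 37.1. Taken ID by ID, WT was between the mutants at all 7, and after scaling at 6. The median log2 difference was -2.42, and all 7 IDs were called without replicate 2 as well. yc1106_07997 in this run had 36.7, 41.5 and 41.2 FPKM in Δrpn-4 and 175, 327 and 177 in Δtah-1 (log2 difference -2.42, SE 0.22, limma adjusted p = 2.89e-07).

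**Figure D5:**
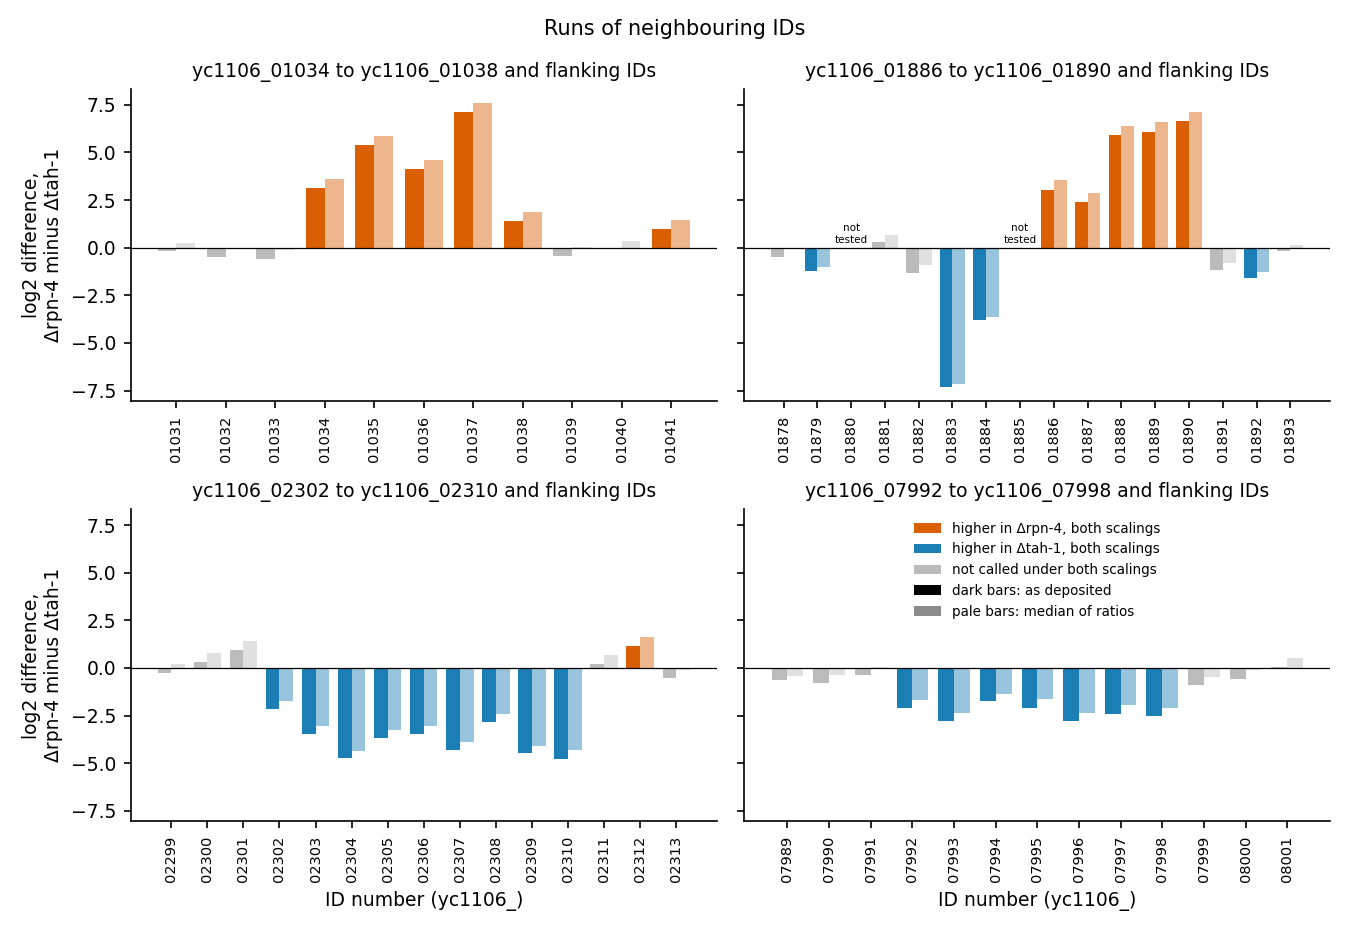
Log2 difference, Δrpn-4 minus Δtah-1, for each ID of the 4 named runs and for flanking IDs, with dark bars for deposited values and pale bars after median-of-ratios scaling, coloured where called under both scalings. The bars of each run share a direction (medians 4.12, 5.90, -3.69 and -2.42), and next to yc1106_01886 to yc1106_01890 the IDs yc1106_01883 and yc1106_01884 point the other way.

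WT on lignosulfonate lay between the mutants at most called IDs. Of the 709 IDs higher in Δrpn-4, its mean was between the mutant means at 426 (60.1%), above both at 252 and below both at 31. Of the 1152 higher in Δtah-1 it was between at 1003 (87.1%), above both at 83 and below both at 66. After median-of-ratios scaling WT was between at 574 (81.0%), above both at 66 and below both at 69 of the 709, so the counts above and below both changed order. Of the 1152 it was then between at 806 (70.0%), above both at 26 and below both at 320. Without Δtah-1 replicate 2, WT was above both at 145 of 1090 IDs higher in Δtah-1 on the deposited values. Which mutant was nearer to WT turned with the scaling: among the 709 IDs, WT was closer to Δrpn-4 at 504 on the deposited values and at 322 after scaling. Among the 1152 IDs it was closer to Δrpn-4 at 538 and at 922. ΔCclaeA was between the mutants at 323 (45.6%) of the 709 and 809 (70.2%) of the 1152 on the deposited values. After scaling these counts were 402 (56.7%) and 563 (48.9%). All these IDs were chosen for a gap between the mutants, in which another group readily falls. Shares over all tested IDs were not computed.

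The IDs that respond to the medium in WT were set beside the contrast of the mutants, with which that comparison shares no library. Both contrasts come from the same fit over all 15 libraries and share the spread estimate of each ID. An ID with a small spread is called more readily in both, so the calls are not independent. Of 9265 IDs, 2405 (26.0%) were called higher and 1355 (14.6%) lower on lignosulfonate than on glucose in WT. The lignosulfonate medium also holds less glucose, so these effects cannot be told apart. Of the 2405 higher on lignosulfonate, 906 (37.7%) were called higher in Δtah-1 than in Δrpn-4, against 23.7% of all tested IDs, and these are 41.3% of the Δtah-1 calls. Scaling by median of ratios left 2108 IDs (22.8%) higher on lignosulfonate, and 495 of them (23.5%) were higher in Δtah-1, against 12.4% of all. Without Δtah-1 replicate 2 the counts were 695 (28.9%) and 464 (22%), against 17.6% and 11.8%.

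IDs of the same set were higher in Δrpn-4 at shares nearer to the background, 243 (10.1%) on the deposited values and 303 (14.4%) after scaling, against 7.65% and 13.8% of all tested IDs. The median log2 difference between the mutants over the IDs higher on lignosulfonate was -0.74, and -0.34 after scaling, against -0.43 and -0.02 over all tested IDs. IDs lower on lignosulfonate included 141 (10.4%) higher in Δrpn-4 and 269 (19.9%) called toward Δtah-1, against 7.65% and 23.7% of all tested IDs. With scaling, 1670 IDs (18.0%) were lower on lignosulfonate, of which 314 (18.8%) were higher in Δrpn-4 and 203 (12.2%) in Δtah-1. All tested IDs gave 13.8% and 12.4%, so the share toward Δtah-1 among IDs lower on lignosulfonate did not exceed the background under either scaling. These are descriptions of counts, and no test of the lists was made.

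The comparison of ΔCclaeA with WT on lignosulfonate also shares no library with the contrast of the mutants, but it shares the spread estimate of each ID in the same way. ΔCclaeA was higher than WT at 312 IDs (3.37%) and lower at 852 (9.20%), and after median-of-ratios scaling at 402 (4.34%) and 659 (7.11%). Between the mutants, 177 (20.8%) of the IDs reduced in ΔCclaeA were called toward Δrpn-4 and 335 (39.3%) toward Δtah-1, against 7.65% and 23.7% of all. After scaling the counts were 178 (27.0%) and 191 (29.0%), against 13.8% and 12.4%, so the share called among IDs lower in ΔCclaeA was above that of all tested IDs in both directions. Of the IDs higher in ΔCclaeA, 56 (17.9%) were higher in Δrpn-4 and 60 (19.2%) in Δtah-1 on the deposited values, and 117 (29.1%) and 43 (10.7%) after scaling.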

How the data were processed

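RNA-seq of mycelia gave 15 libraries, 3 in each of 5 groups, grouped by the genotype and treatment labels. Per the labels' protocols, total RNA came from a TRIzol extraction with a column clean-up. The values deposited by the authors are FPKM, per the file headers of the 6 WT libraries. In the 9 mutant libraries the headers give no unit. Their values look alike in form and range, and both mutants compared here come from this kind of file. RSEM 1.3.3, HISAT2 2.1.0, fastp 0.19.5 and DESeq2 are named, with no roles, in the submitters' processing notes. A genome build was not given in the sources used here. Since FPKM holds no read counts, no count model was run. From the steps between low values (0.08 to 0.6 FPKM) the depth of the 6 libraries relative to each other was estimated at 1.03 to 1.07 in Δrpn-4 and 0.944 to 0.955 in Δtah-1. All 15 pairs of these libraries fitted within 0.05 on the log2 scale.

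Of 10170 IDs, 354 were listed at 0 in every library and 9265 passed the filter of at least 1 FPKM in at least 3 libraries. Values were taken as log2(FPKM + 1), which understates differences at low levels, and were fitted with limma 3.58.1 (trend and robust options) in R 4.3.3, with a mean per group over all 15 libraries. A call needed a Benjamini-Hochberg adjusted p under 0.05 over all tested IDs and at least 2-fold. Median-of-ratios size factors came from 8806 IDs above 0 in every library and were 0.682, 0.696 and 0.683 in Δrpn-4 and 0.807, 1.21 and 0.869 in Δtah-1. The fit was tested on simulated data that gave each ID the same spread in every group, unlike the data. Further steps used Python 3.11.15, NumPy 2.4.6, pandas 2.3.3 and matplotlib 3.10.9.

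Alternatives were other scalings, a pseudocount of 0.1, no filter, only the 6 libraries, a replicate block, no minimum fold and leaving out each of the 6 mutant libraries. The IDs named are, in each direction, the 2 with the largest difference and the 2 with the highest mean among IDs called under both scalings with and without Δtah-1 replicate 2 and not overlapping. The 2 highest of those near 0 in 1 mutant, and the 2 longest runs with their most abundant ID, were added by the same rule, ties going to the lower number. The comparison, its settings and these rules were chosen with earlier results of these data known. Gene lists, sequences and laccases were not analysed here, since no ID was matched to a name.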

Additional observations from a re-analysis of the deposited data

How the results depend on the processing

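Direction and side of the threshold were kept in 332 of 342 repeats over 18 named IDs, and none reversed. Of the other 10, 7 were yc1106_09232 losing its call when a library was left out and 3 were yc1106_06939 gaining one. For IDs named by size or level, the repeats with median-of-ratios scaling and without Δtah-1 replicate 2 were fixed in advance by the selection. For IDs of the runs this holds for the scaling. The count is therefore no independent measure of robustness.

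Of the called IDs, 709 were higher in Δrpn-4 and 2194 in Δtah-1. Median-of-ratios scaling gave 1276 and 1152 (median log2 difference -0.017), TPM 451 and 3774 (median -0.81), and no minimum fold 1548 and 4475, or 6023 in all. Calls at least 16-fold higher in Δtah-1 went from 32 to 21 with median of ratios, 57 with TPM and 71 with a pseudocount of 0.1. IDs near 0 in the other mutant fell to 2 and 1 at the stricter thresholds, and those high in Δtah-1 to 4 after scaling. The cause was not tested.

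Median-of-ratios scaling also moved the counts of IDs higher on lignosulfonate and in Δtah-1 to 495 (23.5% of the list) and lower on lignosulfonate and higher in Δrpn-4 to 314 (18.8%). Those higher in ΔCclaeA and Δrpn-4 moved to 117 (29.1%), and those lower in ΔCclaeA and higher in Δtah-1 to 191 (29.0%). Over all tested IDs the scaled shares were 13.8% toward Δrpn-4 and 12.4% toward Δtah-1. WT was then below both mutants at 69 and above both at 66 of the IDs higher in Δrpn-4, and at 320 and 26 of those higher in Δtah-1.

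Leaving out each of the 6 mutant libraries in turn gave 2399 to 3332 calls, 681 to 775 higher in Δrpn-4 and 1624 to 2651 in Δtah-1, with medians of -0.53 to -0.27. After scaling these were 2266 to 2576, 1173 to 1378 and 1093 to 1198. The calls of at least 16-fold ran from 59 to 65 and from 25 to 45, or 74 to 78 and 18 to 21 after scaling. Without Δtah-1 replicate 2, 7 and 11 IDs were near 0 in the other mutant. Without it, on deposited and scaled values, the medium lists held 464 to 695 IDs higher on lignosulfonate and in Δtah-1, 263 to 299 higher on lignosulfonate and in Δrpn-4, 142 to 275 lower on lignosulfonate and higher in Δrpn-4, and 199 to 232 lower and higher in Δtah-1. Of the IDs higher in ΔCclaeA, 49 (15.7%) and 53 (17.0%) were called toward Δrpn-4 and Δtah-1, and 90 (22.4%) and 48 (11.9%) after scaling. Of those lower in ΔCclaeA, 189 (22.2%) and 267 (31.3%) were called so, and 187 (28.4%) and 181 (27.5%) after scaling. All tested IDs gave 8.40% and 17.6% on the deposited values, and 12.7% and 11.8% after scaling. Without that library, over deposited and scaled values, WT was below both, between and above both at 25 to 92, 453 to 609 and 74 to 297 IDs higher in Δrpn-4. Among those higher in Δtah-1 it was so at 76 to 333, 736 to 869 and 21 to 145. For these lists and positions, leaving out replicate 2 was chosen after seeing the data.

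The main fit did not pair samples by replicate number. Deviations from the group means of same-numbered libraries correlated at -0.315, -0.08 and 0.058 across IDs, which are not independent replicates. Differently numbered libraries gave -0.183 to 0.261. With 3 libraries per group the deviations are tied to each other, so these values cannot decide whether the numbers pair the samples. With the replicate block 708 and 2191 IDs were called, against 709 and 2194.

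Read depth is unknown, 3 libraries per group limit the precision, and exact zeros of 1 library beside 10 FPKM or more in another of its group, 16 times in Δtah-1, limit statements on absence.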

Other observations

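Among the 1152 IDs higher in Δtah-1, the mean of ΔCclaeA was closer to Δrpn-4 than to Δtah-1 at 783 (68.0%) on the deposited values and at 974 (84.5%) after median-of-ratios scaling. The same counts were 778 (67.5%) and 848 (73.6%) for WT on glucose, and 538 and 922 for WT on lignosulfonate, and the IDs had been chosen as higher in Δtah-1. Among the 709 IDs higher in Δrpn-4, ΔCclaeA was closer to Δtah-1 at 328 (46.3%) and 432 (60.9%). A run named after its values were seen, yc1106_03498 to yc1106_03502, placed ΔCclaeA with Δtah-1. Its median over 5 IDs was 2591, 2296 and 2489 FPKM in the Δrpn-4 libraries, 182, 304 and 219 in the Δtah-1 libraries, 64.1, 70.3 and 67.0 in ΔCclaeA and 1225, 1211 and 1635 in WT on lignosulfonate.

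yc1106_06939, also named after its values were seen, is among the 10 most abundant IDs of Δtah-1 and was not called. It was listed at 1240, 1598 and 1454 FPKM in the Δrpn-4 libraries and at 9298, 10711 and 5664 in the Δtah-1 libraries, and the groups did not overlap. The log2 difference was -2.54 (SE 1.2, limma adjusted p = 0.0810). With only the 6 mutant libraries in the fit the limma adjusted p was 1.49e-04, with TPM it was 0.0453, and without Δtah-1 replicate 2 it was 0.180. It was listed at 54.28, 0 and 0 FPKM in WT on glucose and at 8518, 14440 and 3284 in WT on lignosulfonate.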
